A study of Mus musculus with 6 samples.

Results

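The 9 genes described here carry out class II antigen presentation: H2-Aa, H2-Ab1 and H2-Eb1 (class II chains), Cd74 (the invariant chain), H2-DMa, H2-DMb1 and H2-DMb2 (the peptide editor DM), Ciita (their transcriptional coactivator) and Ctss (cathepsin S, a lysosomal protease). They were chosen by name from the 54532 genes of the count table, and all 9 were present there and had enough reads to be tested. The table holds 6 Smart-seq2 libraries, a full-length cDNA method for small amounts of RNA, each made from 500 sorted events. All came from epidermis dissociated from the back skin of 4-week-old C57BL/6 mice, male and female according to the methods, with no treatment or engineered allele named for either group. For the NCAM-enriched group (3 libraries), live (DAPI-negative) cells were selected with antibodies against polysialylated NCAM, a surface protein of Merkel cells, on beads and then by flow cytometry. For the bulk skin group (3 libraries), live cells were sorted without that selection, so that bulk skin can include Merkel cells, which serve touch sensing and are neuroendocrine. The sort chose cells for NCAM and not against class II.

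Class II molecules present peptides from endosomes to helper T cells. An alpha and a beta chain pair in the endoplasmic reticulum, the invariant chain fills their groove and guides them to the endosome, cathepsin S cuts the invariant chain away, and DM exchanges its last fragment for peptides. In the epidermis the resident class II cell is the Langerhans cell, a dendritic-like cell that also makes langerin, the product of Cd207. C57BL/6 mice lack a functional E alpha chain, so that the E beta chain encoded by H2-Eb1 has no partner in them. Transcription of the class II genes depends on Ciita, which does not bind DNA itself but joins a complex of RFX, CREB and NF-Y proteins on the X and Y boxes of their promoters.

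The promoters of H2-Eb1, H2-DMb1, H2-DMb2 and H2-Aa are printed because they hold the boxes through which Ciita acts, or a near match. Each stretch runs from 140 to 31 bases before the start site in RefSeq (GRCm38.p6), 5′ to 3′ on the strand of the gene, at chr17:34305727-34305836 (H2-Eb1), chr17:34153051-34153160 (H2-DMb1), chr17:34145109-34145218 (H2-DMb2) and chr17:34287854-34287963 (H2-Aa). Capitals mark an X box (AGNAAC), a hexamer with 1 difference from it, or a Y box (ATTGG, or CCAAT on the other strand).
H2-Eb1: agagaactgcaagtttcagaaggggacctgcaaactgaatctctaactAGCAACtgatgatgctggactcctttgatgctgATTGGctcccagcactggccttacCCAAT
H2-DMb1: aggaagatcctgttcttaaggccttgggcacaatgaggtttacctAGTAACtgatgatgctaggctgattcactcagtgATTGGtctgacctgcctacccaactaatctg
H2-DMb2: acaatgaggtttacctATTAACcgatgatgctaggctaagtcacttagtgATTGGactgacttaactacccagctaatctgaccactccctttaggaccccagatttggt
H2-Aa: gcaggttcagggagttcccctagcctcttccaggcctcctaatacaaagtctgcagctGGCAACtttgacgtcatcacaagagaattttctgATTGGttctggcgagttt

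An X box followed by a Y box on the same strand, with 15 to 35 bases between them, stood in the H2-Eb1 promoter (X box at -92, 27 bases before the Y box) and in the H2-DMb1 promoter (X box at -95, 28 bases before the Y box). In all, 1.1% of the 32851 mouse promoter windows of 300 bases (250 before and 50 after the start site) hold that pair on either strand. Alone, the X box letters occur in 48.05% of the windows and the Y box letters in 37.41%, so single matches carry little information. In H2-Aa the hexamer 28 bases before the Y box differs from the X box by A1G, and in H2-DMb2 the hexamer 28 bases before the Y box differs by G2T (motif base first, positions counted from 1 at the 5′ end of the motif, hexamer base last). Such a pair with 1 difference occurs in 12.4% of windows, and it was looked for after the sequences had been seen. RefSeq windows were matched for 6 of the 9 genes (7 windows). The H2-DMa and Ctss windows held no pair of either kind on the gene's strand, and no window was matched for Cd74, Ciita and H2-Ab1. H2-Oa, H2-Ob and H2-Eb2, further class II genes of the interval or its flanks, had the exact pair at spacings of 28, 25 and 27 bases. These are letter matches, not measured binding.

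Of the 9 genes, 6 lie within 197.1 kb of chromosome 17 (GRCm38), between 34119541 and 34316674. In that order these are H2-DMa (34119541 to 34139101, plus strand), H2-DMb2 (34143307 to 34151555, plus), H2-DMb1 (34153072 to 34160230, plus), H2-Ab1 (34257689 to 34269419, plus), H2-Aa (34282744 to 34287823, minus) and H2-Eb1 (34305867 to 34316674, plus). Cd74 is on chromosome 18 (60803848 to 60812652, plus), Ciita on chromosome 16 (10480059 to 10528418, plus) and Ctss on chromosome 3 (95526786 to 95556403, plus). All 9 are protein-coding and their reads were counted over exons.

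The libraries held 1343190 to 4481830 counts, so that 1 count was 0.216 to 0.773 normalised CPM (counts relative to the library total, scaled for library composition). The 9 Merkel cell markers summed to 456.6 to 1633 CPM in the NCAM-enriched libraries and to 127.5 to 179.2 CPM in bulk skin, without overlap. Among them Krt18 averaged 245 against 55.4 CPM and Pou4f3 182.5 against 19.5 CPM. The NCAM-enriched libraries were not alike: 6 fibroblast markers summed to 33003 CPM in library 2, against 363 and 41.7 CPM in libraries 1 and 3. In bulk skin libraries 1, 2 and 3 the same markers summed to 13226, 18198 and 10356 CPM. The labels call the bulk skin libraries total skin, and the methods describe them as epidermis. Which cells their class II reads came from was not tested. Of 3 suprabasal keratinocyte keratins edgeR called Krt77 and Krt10 higher in the NCAM-enriched group, against 1.04% of all genes tested. Krt1, named after values had been seen, was not called (edgeR adjusted p = 0.121) and overlapped between the groups. The 3 keratins summed to 10715 to 22931 CPM in the NCAM-enriched libraries and to 799 to 1122 CPM in bulk skin. Replicates were sorted into wells of a plate, and neither labels nor methods say that they came from separate animals. Fewer cells of a type and less RNA per cell cannot be told apart in these pooled libraries.

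Class II transcripts were abundant in bulk skin and rare in the NCAM-enriched libraries. Reads of the 9 genes made up 1.92%, 1.38% and 1.17% of all counts in bulk skin libraries 1, 2 and 3. In the NCAM-enriched libraries they made up 0.0196% (95% exact binomial interval 0.0177 to 0.0216), 0.00268% (0.00188 to 0.00371) and 0.0396% (0.0376 to 0.0417) of the counts, that is 390, 36 and 1505 reads. Reads are PCR copies, so that such intervals cover counting error only. The summed level averaged 14770 ± 4513 CPM (SD, n = 3) in bulk skin and 220.7 ± 199.9 CPM in the NCAM-enriched group, a ratio of means of 66.9. The lowest bulk skin library was 26.1 times the highest NCAM-enriched library. Within groups the summed level spanned 1.78-fold in bulk skin and 15.3-fold in the NCAM-enriched group, where library 2 was lowest and library 3 highest.

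**Figure D1:**
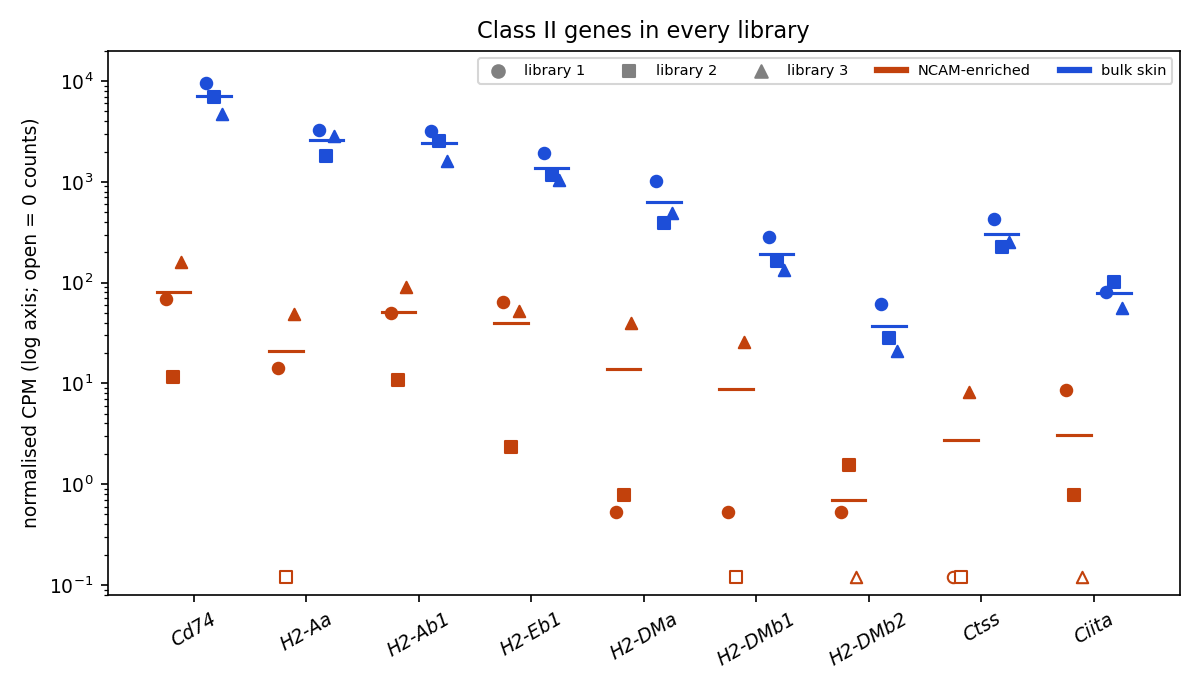
Normalised CPM (log axis) of the 9 class II genes in each of the 3 NCAM-enriched and 3 bulk skin libraries, with the library given by the symbol shape and the group by colour, the group mean as a bar and open symbols at the bottom for 0 counts. For every gene all 3 bulk skin points lie above all 3 NCAM-enriched points, and for H2-DMa, H2-DMb1 and Ctss only NCAM-enriched library 3 rises above 1 CPM.

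With the edgeR quasi-likelihood test over 13157 genes, 5 of the 9 class II genes were called lower in the NCAM-enriched group at an adjusted p of at most 0.05, against 1.55% of all genes tested in that direction. These were Cd74, H2-Aa, H2-Ab1, H2-Eb1 and Ctss. Ciita, H2-DMa, H2-DMb1 and H2-DMb2 did not pass. DESeq2, the tool the study used, and limma-voom each called all 9 lower, against 6.65% and 6.45% of the genes they tested. The 3 NCAM-enriched values lay below the 3 bulk skin values for all 9 genes, which held for 19.3% of all genes tested. The fitted log2 fold changes (NCAM-enriched minus bulk skin) ran from -6.91 to -4.34 with a median of -5.59, while the median over all genes was -0.07.

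The calls depended on single libraries. Leaving out bulk skin library 1, 2 or 3 left 0 of the 9 genes called by edgeR, although all 9 kept an unadjusted p under 0.05, and 13, 21 and 16 genes of the whole table were then called lower. Leaving out NCAM-enriched library 1, 2 or 3 left 3, 7 and 9 of the 9 genes called. Calls over the whole table moved too, with 223 of 14222, 592 of 14384 and 733 of 14962 genes tested then called lower. The fitted change was below 0 for every gene in all 14 alternatives.

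Cd74, the invariant chain, was the most abundant of the 9. It had 68.0, 11.6 and 160.6 CPM in NCAM-enriched libraries 1, 2 and 3 and 9552, 6950 and 4693 CPM in bulk skin. Even the highest NCAM-enriched value was 29.2-fold under the lowest bulk skin value. On the log2 scale the decrease of Cd74 was -6.45 ± 1.01 (SE; edgeR adjusted p = 0.0191), and the adjusted p ran from 1.79e-26 to 0.115 over the alternatives. The call was lost without NCAM-enriched library 1 (adjusted p = 0.0618) and without any bulk skin library (0.0974 to 0.115).

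H2-Ab1 and H2-Aa encode the beta and alpha chains of the A molecule, the class II heterodimer that C57BL/6 mice make. H2-Ab1 had 49.9, 10.8 and 90.8 CPM in the NCAM-enriched libraries and 3221, 2517 and 1622 CPM in bulk skin. The 2 groups stood 17.9-fold apart at their nearest values, and H2-Ab1 fell by 5.59 ± 0.81 (SE; adjusted p = 0.0166, range over alternatives 2.54e-21 to 0.101). With Ctss it was one of the 2 genes called in every fit that kept all 3 bulk skin libraries. H2-Aa had 14.4, 0 and 49.1 CPM in the NCAM-enriched libraries and 3248, 1818 and 2826 CPM in bulk skin. The 0 of library 2 allows up to 2.32 CPM (3 counts). H2-Aa fell by 6.91 ± 1.28 (SE; adjusted p = 0.0313, range 1.75e-28 to 0.178), and was not called without NCAM-enriched library 1 (adjusted p = 0.0872) or without any bulk skin library.

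H2-Eb1 encodes the E beta chain. Its level was 64.8, 2.32 and 52.5 CPM in the NCAM-enriched libraries and 1924, 1161 and 1037 CPM in bulk skin, so that libraries 1 and 3 of the NCAM-enriched group were alike and library 2 rested on 3 counts. H2-Eb1 fell by 5.09 ± 0.97 (SE; adjusted p = 0.0347, range 2.79e-18 to 0.195), with the call lost without NCAM-enriched library 1 (adjusted p = 0.0664) or any bulk skin library. The gene listed as its alpha partner, H2-Ea-ps, a polymorphic pseudogene in the annotation, had 0 counts in all 6 libraries, as did H2-Eb2.

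Ctss, the protease that trims the invariant chain, had 0, 0 and 8.23 CPM in the NCAM-enriched libraries and 426.6, 226.1 and 255.5 CPM in bulk skin. All 29 of its reads in the NCAM-enriched group came from library 3, and the zeros of libraries 1 and 2 allow up to 1.59 and 2.32 CPM. Ctss fell by 6.50 ± 1.16 (SE; adjusted p = 0.0271, range 1.62e-20 to 0.190), and lost the call without any bulk skin library.

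H2-DMa and H2-DMb1 encode the alpha and beta chains of DM. H2-DMa had 0.531, 0.773 and 40.0 CPM in the NCAM-enriched libraries and 1026, 394.5 and 485.8 CPM in bulk skin. H2-DMb1 had 0.531, 0 and 25.8 CPM, against 281.3, 162.6 and 134.6 CPM. Of their NCAM-enriched reads, 98.6% (141 of 143) and 98.9% (91 of 92) were in library 3. Neither passed the edgeR test, with log2 fold changes of -5.44 ± 1.33 (SE; adjusted p = 0.0670, range 1.57e-18 to 0.285) and -4.34 ± 1.26 (adjusted p = 0.0977, range 7.71e-10 to 0.312). Without library 3 both were called, at adjusted p = 0.00318 and 0.00456. Exons of Brd2 on the other strand share 10.4% of the exonic bases of H2-DMa, and Smart-seq2 does not record the strand. Brd2 itself had 307.1, 361.6 and 331.1 CPM in the NCAM-enriched libraries, and H2-DMa was under 1 CPM in libraries 1 and 2 beside it.

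H2-DMb2, a second DM beta gene, had 0.531, 1.55 and 0 CPM in the NCAM-enriched libraries and 60.9, 28.3 and 21.1 CPM in bulk skin. It had 3 reads in the whole NCAM-enriched group against 404 in bulk skin, a ratio of pooled, size-scaled counts of 78.5 (95% exact counting interval 26.7 to 382). Its fitted change of -5.92 ± 1.33 (SE) gave an adjusted p of 0.0550 (range 2.62e-05 to 0.285). The principal transcripts of H2-DMb1 and H2-DMb2 are 94.4% identical over 1255 aligned bases, and 27.2% of the 50-base stretches of H2-DMb1, the length of the reads, recur in H2-DMb2. How the counting split reads between them is not known, so the level of each is uncertain.

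Ciita had 8.50, 0.773 and 0 CPM in the NCAM-enriched libraries and 80.4, 101.0 and 56.2 CPM in bulk skin. Unlike for the class II chains, H2-DMa and H2-DMb1, 16 of its 17 NCAM-enriched reads were in library 1 and none in library 3, the library with the most class II reads. The 0 of library 3 allows up to 0.851 CPM. Its log2 fold change was -4.69 ± 1.27 (SE; edgeR adjusted p = 0.0817, range 3.77e-06 to 0.285), and it was called without NCAM-enriched library 1 (adjusted p = 0.0196) or library 3 (0.0404).

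**Figure D2:**
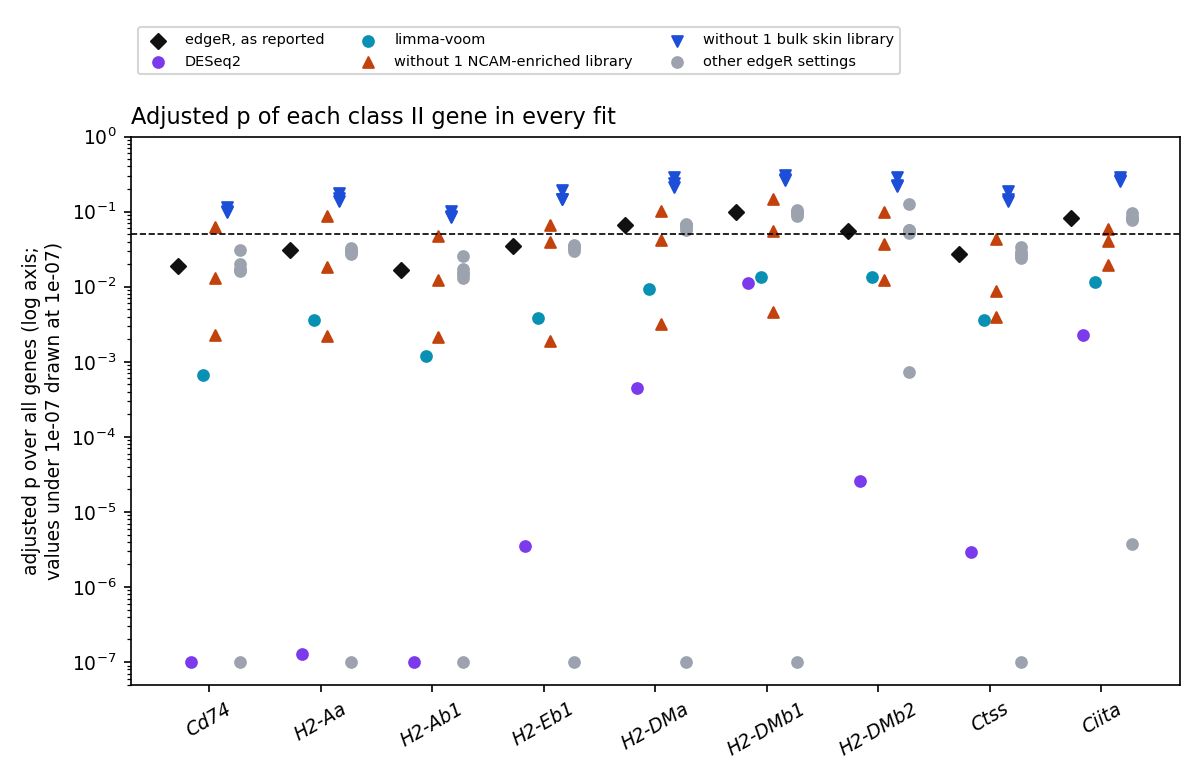
Adjusted p over all genes (log axis) of each class II gene in the edgeR test as reported and in the 14 alternatives, with the 0.05 threshold as a dashed line and the smallest values drawn at the lower end of the axis. All fits that leave out a bulk skin library lie above the line for all 9 genes, while DESeq2 and limma-voom lie below it for all 9.

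Levels of different genes were compared per kb of principal transcript. In bulk skin Cd74 was highest at 5010 ± 1724 CPM per kb (SD, n = 3), followed by H2-Aa (2332 ± 651), H2-Ab1 (2024 ± 661), H2-Eb1 (823 ± 288), H2-DMa (383 ± 206), Ctss (223 ± 79.9), H2-DMb1 (137 ± 55.5), H2-DMb2 (25.8 ± 14.9) and Ciita (13.2 ± 3.73). The values of neighbours in that order did not overlap between Cd74 and H2-Aa, H2-Ab1 and H2-Eb1, H2-Eb1 and H2-DMa, or H2-DMb1 and H2-DMb2. They overlapped between H2-Aa and H2-Ab1, which changed places in 1 of the 3 libraries, and between H2-DMa and Ctss, Ctss and H2-DMb1, and H2-DMb2 and Ciita, which kept the order in all 3 libraries. The regulator was thus at the bottom of the order and the invariant chain at the top.

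Ratios between class II genes within a library need no normalisation, and some stood apart between the groups. These ratios were chosen after the values had been seen and are given without a test. Cd74 had 2.97, 2.76 and 2.89 reads for each H2-Ab1 read in bulk skin, and 1.36, 1.07 and 1.77 in the NCAM-enriched libraries, without overlap. Cd74 made up 42.2% to 52.0% of the class II reads in bulk skin and 32.8% to 41.7% in the NCAM-enriched libraries, where the highest share, 15 of 36 reads in library 2, has an exact 95% interval of 25.5% to 59.2%. H2-Eb1 took 31.3% (26.7 to 36.1) of the class II reads in NCAM-enriched library 1, against 8.69% to 9.71% in bulk skin and 8.33% and 12.3% in the other NCAM-enriched libraries. H2-Aa had 1.08, 0.776 and 1.87 times the H2-Ab1 level per kb in bulk skin and 0.309, 0 and 0.581 times in the NCAM-enriched libraries.

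The other class II pathway genes were read from 5 lists of 48 genes in the table, of which 42 were tested. edgeR called 4 of the 42 lower and 0 higher (1.55% of all genes tested were lower and 1.04% higher). At an unadjusted p under 0.05 there were 15 lower and 2 higher, where 10.2% of all genes tested were lower and 8.73% higher, so that 2 of 42 was under the background. DESeq2 called 14 lower and 1 higher (6.65% of all its genes were lower and 7.64% higher). The limma-voom calls were 12 lower and 1 higher (6.45% lower and 2.67% higher). The median log2 fold change of the 42 genes was -1.10. By list the medians were -5.37 for further class II genes, -1.0 for endosomal processing, -0.80 for trafficking and -0.60 for transcription. In the costimulation list 3 of the 5 tested genes had 0 reads in the NCAM-enriched group and so no measured fold. With these at their bound (3 counts over the group), the list's median was -4.94, and the fitted median of -8.36 depends on how the model treats zeros.

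**Figure D3:**
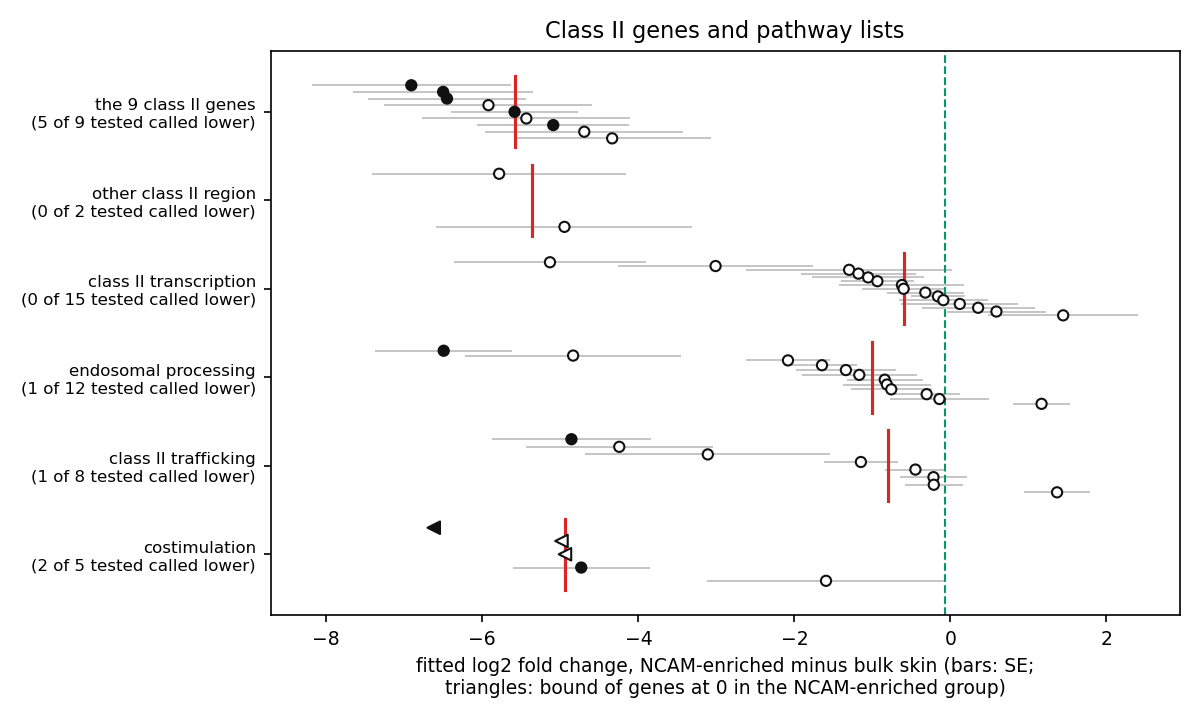
Fitted log2 fold change with SE of each tested gene, by list, with filled symbols for genes called lower by edgeR, triangles without SE at the bound of genes with 0 NCAM-enriched reads, the list median as a red bar and the median of all genes (-0.07) as a dashed line. The 9 class II genes, the 2 further class II genes and most costimulation genes lie below -4, whereas most genes of the other 3 lists lie between -2 and 1.5.

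H2-Oa and H2-Ob encode DO, an inhibitor of DM. H2-Oa had 0, 1 and 0 reads in the NCAM-enriched libraries and 43, 36 and 59 in bulk skin (edgeR adjusted p = 0.0894), and H2-Ob had 0, 2 and 0 against 54, 55 and 45 (adjusted p = 0.14). Both were called lower by DESeq2 and limma-voom. Exons of BC051537 on the other strand share 22.8% of the exonic bases of H2-Oa.

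Of the costimulation list 2 of 5 tested genes were called lower by edgeR, against 1.55% of all genes tested. Cd86, a ligand of CD28 on T cells, had 0 reads in all 3 NCAM-enriched libraries and 101, 129 and 277 in bulk skin, at least 98.5-fold lower if the NCAM-enriched libraries held 3 counts in all (adjusted p = 0.0253). Cd83, a maturation marker that stabilises surface class II and CD86, had 4.14 ± 3.69 against 118.5 ± 6.94 CPM (SD, n = 3; adjusted p = 0.0315). Pdcd1lg2 and Icosl, the most abundant that did not pass, had 0 reads in the NCAM-enriched group and 163 and 158 in bulk skin. Among the fits that left out a library, the calls of Cd86 and Cd83 were lost without any bulk skin library, and that of Cd83 also without NCAM-enriched library 1.

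Of 12 tested endosomal processing genes 1 was called lower by edgeR, against 1.55% of all genes tested. Napsa, an aspartic protease, had 4, 1 and 1 reads against 473, 338 and 216 (log2 fold change -6.49, adjusted p = 0.0131, lost without any bulk skin library, with a highest value of 0.142), with 18.9% of its exonic bases shared with Gm15396 on the other strand. Cst3, the abundant protease inhibitor cystatin C, had 734 ± 379 against 3109 ± 874 CPM (SD, n = 3; adjusted p = 0.0744), and the general lysosomal protease Ctsb had 435 ± 284 against 780.5 ± 54.8 CPM (adjusted p = 0.406). Ctsd, chosen after values had been seen, was the 1 tested gene of this list with a positive change, 720 ± 155 against 320 ± 68.1 CPM (edgeR adjusted p = 0.123), without overlap between the groups and called higher by limma-voom (0.042). An annotated transcript on the same strand shares 34.4% of its exonic bases.

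Of 8 tested trafficking genes 1 was called lower by edgeR, against 1.55% of all genes tested. This was Cd53, a leukocyte tetraspanin, with 12.7 ± 13.6 against 376.7 ± 134 CPM (SD, n = 3, edgeR adjusted p = 0.0468). Its call was lost without NCAM-enriched library 1 and without any bulk skin library. Cd9, a widely expressed tetraspanin, had 810 ± 348 against 1795 ± 555 CPM (adjusted p = 0.230), and the lysosomal membrane protein Lamp1 318 ± 135 against 370 ± 84.9 CPM (adjusted p = 0.849). March1 and March8, ubiquitin ligases that remove class II from the surface, were chosen after values had been seen: March1 had 0, 0 and 22 reads against 103, 69 and 46 (adjusted p = 0.331), while March8 had 108.2 ± 26.4 against 41.9 ± 9.08 CPM (adjusted p = 0.119, called higher by DESeq2).

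None of the 15 transcription genes was called by edgeR. DESeq2 and limma-voom each called 1, Irf8, lower, where 6.65% and 6.45% of the genes they tested were lower. At an unadjusted p under 0.05 edgeR had 2 of the 15 lower and 0 higher, near the 10.2% lower over all genes. Jak1 and Ifngr1, parts of interferon gamma signalling, which induces Ciita in many cells, were the most abundant, at 357 ± 97.3 against 398 ± 30.8 CPM (SD, n = 3; adjusted p = 0.864) and 87.9 ± 41.2 against 168.0 ± 45.9 CPM (adjusted p = 0.324). The other transcription genes named here were chosen after values had been seen: the RFX, NF-Y and CREB genes of the list for their place in the promoter complex, and Irf8 for its calls. The RFX subunits Rfxap and Rfxank were at 33.0 ± 8.08 against 35.1 ± 6.88 and at 32.3 ± 4.72 against 21.4 ± 5.64 CPM (adjusted p = 0.957 and 0.685). Rfx5 had 4.63 ± 4.30 against 11.6 ± 4.91 CPM (adjusted p = 0.661), and the NF-Y subunit Nfyb 57.6 ± 43.7 against 53.1 ± 5.21 CPM (adjusted p = 0.956). Nfya had 35.8 ± 41.5 against 13.0 ± 1.37 CPM (adjusted p = 0.478), Nfyc 27.1 ± 11.5 against 21.3 ± 8.19 CPM (adjusted p = 0.853) and Creb1 56.0 ± 27.3 against 70.0 ± 8.96 CPM (adjusted p = 0.792). Irf8, a factor of dendritic and B cells, had 23, 0 and 1 reads against 514, 550 and 583 (adjusted p = 0.0637). Reads of these RFX, NF-Y and CREB genes were thus present in both groups, with Rfx5 at 0 in NCAM-enriched library 2. Ciita and Irf8 were under 1 CPM in NCAM-enriched libraries 2 and 3. In library 1 they had 8.50 and 12.2 CPM, beside 8.50 CPM of Rfx5. Whether any of these genes bears on the class II levels was not tested. That a p misses the threshold does not show equal levels.

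Neighbours of the class II genes on chromosome 17 were read beside them. Between the DM genes and H2-Ob lie Psmb9, Psmb8, Tap1 and Tap2, which cut and carry peptides for class I molecules. Of the 12 other annotated genes that lie in or overlap the interval 6 were tested, and edgeR called none lower or higher. Over all genes tested the shares were 1.55% lower and 1.04% higher, and H2-DMa, H2-DMb1 and H2-DMb2 of the same interval were not called either. H2-Ob had a log2 fold change of -4.95 ± 1.64 (SE, edgeR adjusted p = 0.14), within the range of the 9 genes, and was called lower by DESeq2. Tap1 had 183.9, 130.6 and 332.3 CPM in the NCAM-enriched libraries and 119.8, 136.6 and 90.5 CPM in bulk skin (log2 fold change 0.90 ± 0.43 SE, adjusted p = 0.307). Tap2 had a log2 fold change of 0.04 ± 0.79 (adjusted p = 0.986), Psmb9 of -1.16 ± 1.32 (adjusted p = 0.705) and Psmb8 of -1.71 ± 0.75 (adjusted p = 0.265). Levels of Tap1, Tap2 and Psmb9 overlapped between the groups, and those of Psmb8 (57.4, 8.50 and 121.2 against 264.5, 200.2 and 151.3 CPM) did not. Whether these genes differed from the class II genes on both sides of them was not tested.

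**Figure D4:**
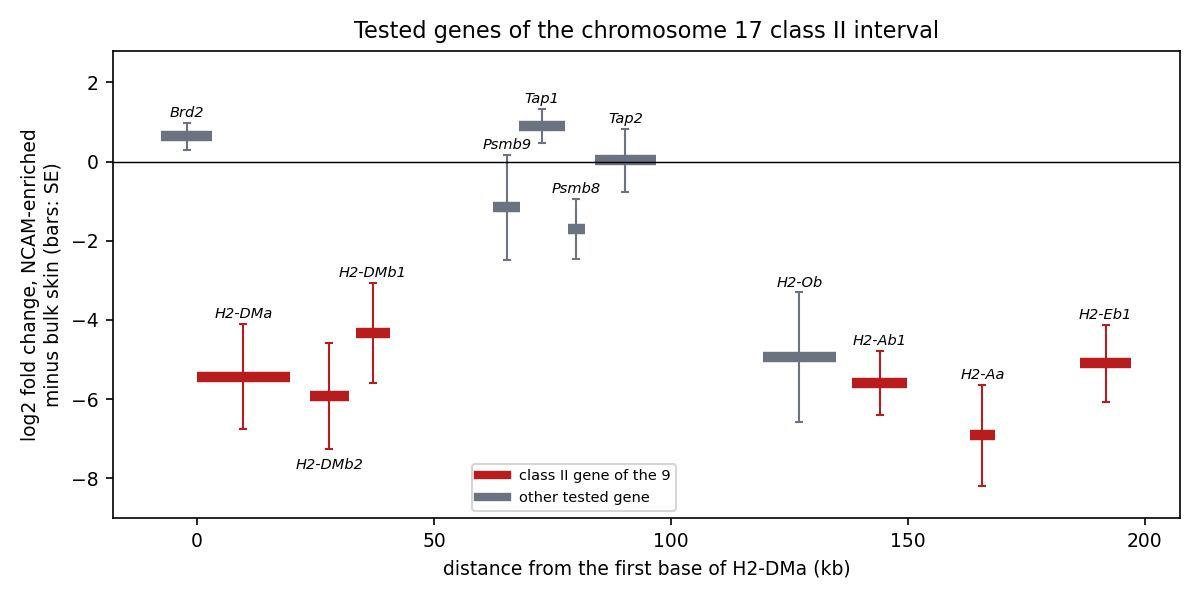
Fitted log2 fold change with SE of the 12 tested genes in the chromosome 17 interval, against distance from the first base of H2-DMa (kb), with each bar as long as the gene. The 6 class II genes of the 9 and H2-Ob lie between -6.91 and -4.34, and Brd2, Tap1, Tap2, Psmb8 and Psmb9 lie between -1.71 and 0.90.

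Most markers of Langerhans and other myeloid cells were, like the class II genes, lower in the NCAM-enriched group. Their part in the result was not tested. Of 18 such markers 16 were tested and 10 called lower by edgeR, against 1.55% of all genes tested. DESeq2 called 14 lower and limma-voom 13, against 6.65% and 6.45% of the genes they tested. The list summed to 168.4 to 593 CPM in the NCAM-enriched libraries and to 3185 to 4275 CPM in bulk skin. Epcam, which keratinocytes and Merkel cells also make, was most of the NCAM-enriched sum. Without Epcam the list summed to 204.0, 36.3 and 110.1 CPM and to 4042, 2963 and 3428 CPM. Among the NCAM-enriched libraries that sum was highest in library 1, and the class II sum (207.2, 27.8 and 427.0 CPM) in library 3. Cd207 had 0, 1 and 0 reads in the NCAM-enriched libraries and 853, 917 and 862 in bulk skin (ratio of pooled, size-scaled counts 1534, 95% exact counting interval 275 to 60624, adjusted p = 0.00189). Ptprc, the pan-leukocyte CD45, had 68, 1 and 111 against 1734, 2487 and 1919 reads (adjusted p = 0.0403), and Fcer1g 134, 3 and 27 against 2299, 2052 and 3508 (adjusted p = 0.0587). Itgax, Flt3 and Ly75, markers of dendritic cells, were at 0 in all NCAM-enriched libraries. Zbtb46 and Cd1d1 of the same list, named after values had been seen, overlapped between the groups. Zbtb46 had 13.8, 0 and 5.11 against 10.3, 8.86 and 8.23 CPM (edgeR adjusted p = 0.886). Cd1d1 had 4.25, 0 and 0 against 7.14, 4.54 and 0.823 CPM (edgeR adjusted p = 0.694).

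Class II reads of NCAM-enriched libraries 1 and 3 came with fewer Cd207 reads than in bulk skin. In bulk skin there were 36.1, 35.1 and 19.9 Cd74 reads for each Cd207 read. NCAM-enriched library 3 had 566 Cd74 reads and 0 Cd207 reads, at least 189 to 1 against a floor of 3 counts, and library 1 had 128 and 0, at least 42.7 to 1. Library 2, with 15 and 1, is too shallow to place. Against Ptprc the ratio in libraries 1 and 3 was below bulk skin, with 1.88, 15 and 5.10 Cd74 reads per Ptprc read in the NCAM-enriched libraries and 17.7, 12.9 and 8.92 in bulk skin. These ratios were chosen after values had been seen, are not tested, and do not name the cells that the reads came from.

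Other cell types were read the same way. All 6 T cell markers were called lower by edgeR, against 1.55% of all genes tested. Their sum was 1.06 to 12.8 CPM in the NCAM-enriched libraries and 1901 to 2251 CPM in bulk skin. The most abundant were Cd3g, at 4.34 ± 7.06 against 1243 ± 125 CPM, and Trdc, the constant region of the gamma delta receptor's delta chain, at 0.258 ± 0.446 against 331 ± 50.3 CPM (SD, n = 3). The 5 B cell markers were too low to test and summed to at most 4.94 CPM in every library, with Cd79b at 0 in the NCAM-enriched group and Cd79a at 1 read in bulk skin. Basal keratinocyte keratins were at 6053 to 27877 CPM and at 10066 to 14747 CPM, overlapping, with Krt15 at 5800 ± 4633 against 5442 ± 1396 CPM (edgeR adjusted p = 0.963) and Krt5 at 4548 ± 3861 against 3879 ± 276 CPM (adjusted p = 0.894). Of the 6 fibroblast markers edgeR and DESeq2 called 0. At an unadjusted edgeR p under 0.05 there was 1 lower, where 10.2% of all genes tested were lower. Col3a1, Dcn and Lum were the 3 that limma-voom called lower, against 6.45% of the genes it tested. Col1a1 had 4005 ± 6823 against 4066 ± 1687 CPM (edgeR adjusted p = 0.996, limma-voom 0.108) and Col3a1 1640 ± 2770 against 3986 ± 959 CPM (edgeR 0.724, limma-voom 0.0298), both with overlapping groups and with nearly all NCAM-enriched reads in library 2. Dcn and Lum, named after values had been seen, did not overlap, at 268 ± 438 against 2035 ± 98.4 CPM (edgeR 0.311, limma-voom 0.00358) and 14.9 ± 25.9 against 275 ± 59.9 CPM (edgeR 0.182, limma-voom 0.0083). NCAM-enriched library 2, which carried nearly all fibroblast marker reads of its group, had the fewest class II reads. Without it edgeR called 7 of the 9 class II genes lower, beside 592 of all 14384 genes tested.

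**Figure D5:**
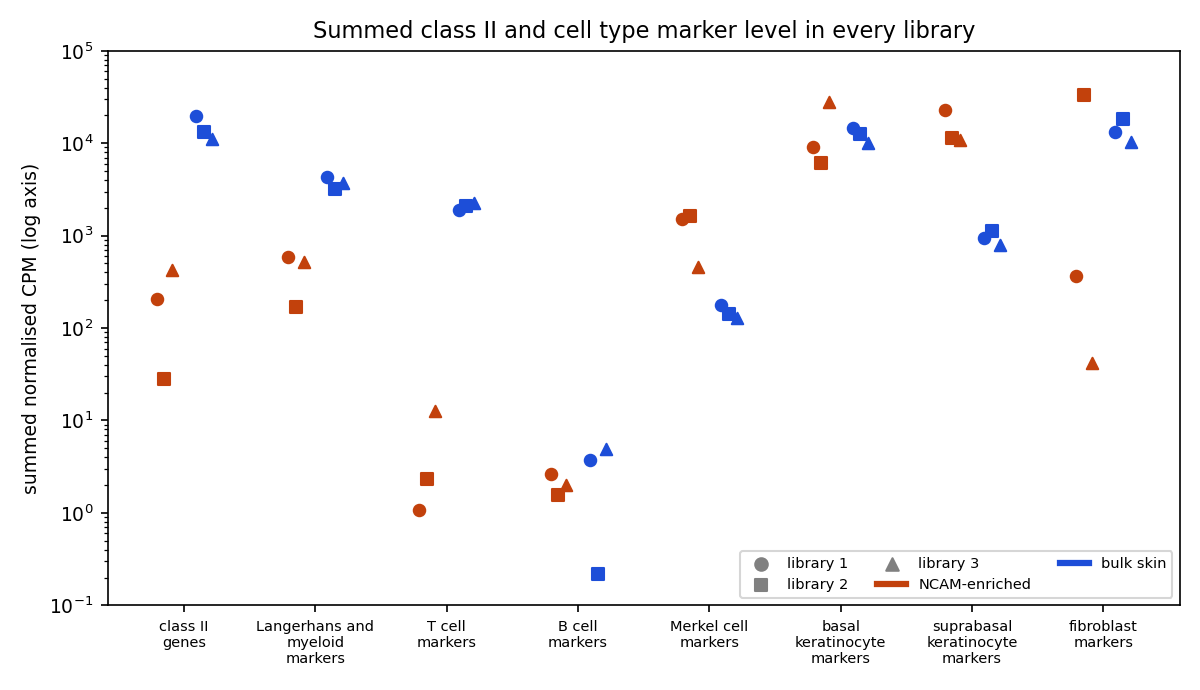
Summed normalised CPM (log axis) of the 9 class II genes and of the cell type marker lists in each library, with the library given by the symbol shape and the group by colour. Class II, Langerhans and myeloid, and T cell sums are lower in all 3 NCAM-enriched libraries than in all 3 bulk skin libraries, whereas the basal keratinocyte and fibroblast sums overlap.

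The genes most like Cd74 across the 6 libraries were sought among 9594 tested genes whose mean reached 20 CPM in either group, by Pearson's r of log2(CPM + 1). The points are 2 groups of libraries, so any gene with a like gap between groups scores high, and no p is given. H2-Ab1 ranked first (r = 0.9997) and H2-Aa ninth (0.9917), whereas H2-DMa, H2-DMb2 and Ciita had r of 0.957, 0.886 and 0.881. Outside the 9 genes the closest were Lcp1 (r = 0.9962), the actin bundler plastin of leukocytes, St3gal6 (0.9962), a sialyltransferase, Plrg1 (0.9954), a splicing factor, Fam214a (0.9951) and Rcsd1 (0.9930). Lcp1 had 3.72, 0 and 16.2 CPM in the NCAM-enriched libraries and 488.7, 407.9 and 409.3 CPM in bulk skin. As for Cd74, library 2 was lowest and library 3 highest in the NCAM-enriched group.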

How the data were processed

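The authors deposited whole-number counts of reads for each gene, without normalisation. According to the methods, adapters were clipped with bbduk, abundant sequences removed with bbmap, reads of 50 bases aligned to GRCm38 with STAR and counted with featureCounts. Neither the annotation release nor the strand option is given in the sources used here.

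Groups came from the labels. The test was edgeR 4.0.16 in R 4.3.3, with filterByExpr, TMM factors and a quasi-likelihood F-test on group alone, and Benjamini-Hochberg adjustment over 13157 genes. Calls used an adjusted p threshold of 0.05. SE is the absolute log2 fold change over the square root of F. CPM use library sizes times TMM factors, and a floor is 3 counts. The scripts were tested on simulated data. Alternatives were DESeq2 1.42.0, limma-voom (limma 3.58.1), other filters and size factors, a block for replicate number, robust dispersion, and leaving out each library. p-values measure only the spread between these libraries, which may be technical.

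The 9 genes and all lists were chosen with earlier results of these data known. Named were all 9, every pathway gene that passed and the 2 most abundant per list that did not, the 2 most abundant markers per list (in the NCAM-enriched group for Merkel cells and keratinocytes, otherwise in bulk skin) with Cd207, and the 5 genes most like Cd74. Others are said to be chosen after values had been seen, and markers named only as called or at 0 fall under no rule. Gene models were from GENCODE M21, in which 54495 gene IDs were found and 37 were not. Promoters were from RefSeq (GRCm38.p6). Figures were drawn with matplotlib 3.10.9.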

Additional observations from a re-analysis of the deposited data

How the results depend on the processing

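As reported, edgeR called 137 genes higher and 204 lower, 5 of the 9 class II genes lower, and 4 other pathway genes lower and 0 higher. DESeq2 gave 1257 higher, 1094 lower, 9 class II genes, and 14 pathway genes lower and 1 higher. limma-voom gave 351, 849, 9, 12 and 1. Without a filter, edgeR gave 769, 741, 9, 12 and 0. A block for the replicate number gave 50 higher and 92 lower, 5 class II genes and 2 pathway genes lower, Cd86 and Cd83 no longer being called. Deviations from the group mean correlated at 0.0226, 0.00025 and -0.00436 between libraries of the same number. With 3 libraries per group, such values cannot show whether libraries of the same number shared an animal. DESeq2 size factors, library totals, a filter of at least 10 counts in 3 libraries and robust dispersion left these counts within 1.5 times.

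Leaving out 1 library, the class II genes called ran from 0 to 9, the pathway genes lower from 0 to 13 and higher from 0 to 0, and all genes called higher from 0 to 1099 and lower from 13 to 733. The mean difference in log2 summed class II CPM was -6.71, and from -7.53 to -5.59 without 1 library. Alternatives of the test, dispersion or block do not change that sum. No class II gene changed sign. The cause of these differences was not tested. Low read numbers limit the NCAM-enriched values, with 36 class II reads in library 2. Ciita, H2-DMb2 and, outside library 3, H2-DMa, H2-DMb1 and Ctss rest on few or no reads in that group.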
